A study of Mus musculus with 6 samples.

Results

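The genes described here encode the transcription factors of the AP-1 family, 10 genes chosen by name: Fos, Fosb, Fosl1, Fosl2, Jun, Junb, Jund, Atf3, Batf and Maff. They are 10 of 21938 protein-coding genes of the mouse annotation used (GENCODE on GRCm38), and all 10 were found in it by symbol. For each gene, the peaks of histone H3 acetylated at lysine 27 (H3K27ac) were taken that overlapped a promoter, defined as 2.5 kb on either side of any annotated transcription start site (TSS), or the locus, defined as the gene body with 50 kb on either side. The data came from whole retinas of wild type mice that were 3 months old at the first of a series of pressure elevations. In the 4xIOP group 1 eye of each animal was held at an intraocular pressure (IOP) of 30 mmHg for 1 h, and this was done 4 times at an interval of weeks. The control group consisted of contralateral eyes left untreated, and tissue was taken 2 days after the final elevation. Each group had 3 retinas, and each retina gave 1 peak list. The protocol shared by the series also describes dasatinib and vehicle injections, and the labels of these 6 retinas name neither. The comparison asks whether repeated mild stress on a young retina changes the level of this active mark.

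AP-1 proteins bind DNA as dimers through a basic leucine zipper (bZIP). Members of the Fos branch need a partner of the Jun branch, while Jun proteins can also pair with each other, and the dimers bind the letters TGANTCA or TGACGTCA. Fos, Fosb, Jun, Junb and Atf3 are known as immediate early genes, which are switched on within minutes in neurons and glia by activity, injury or stress signals that run through mitogen-activated protein kinases. H3K27ac is found on nucleosomes beside active promoters and enhancers, and it marks where such genes are active or ready for activation.

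The lists held 16195 to 36509 peaks over 6.66 to 20.1 Mb, and control replicate 3 stood apart with the most peaks and the longest coverage. In 4 of the 6 lists the peak names carry the name of the other group, and the name matched the label in control replicate 3 and 4xIOP replicate 3. Groups were taken from the labels, so every direction below holds for the retinas as labelled. The fragments at a peak summit and the local background were recovered from the deposited fold and p-value, and the fragments were divided by the mean background of the genome in that list (2.01 to 3.38 fragments) to give a relative signal. Rod marker genes, the main cells of the mouse retina, had a promoter peak for 6 of 6 genes in every list. The 7 microglia, 4 pigment epithelium, 3 lens and 3 blood marker genes had none in any list. Markers of other cell types of the retina were mixed, with no peak in any list for 4 of 5 ganglion cell, 3 of 4 cone, 4 of 6 amacrine and horizontal cell, 1 of 4 Mueller glia and 0 of 4 bipolar cell genes, so a bare promoter in bulk retina does not show that a cell type is absent.

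Most AP-1 genes carried the mark at their promoter, and which of them did so differed little between lists. Fos, Fosb, Jun, Junb, Jund and Atf3 had a promoter peak in 6 of 6 lists, Maff in 5, Fosl2 in 2, and Fosl1 and Batf in none. The number of the 10 promoters that were marked was 7, 7 and 8 in the control lists, in order of replicate, and 8, 6 and 7 in the 4xIOP lists. Among all protein-coding genes, 39.5% had a promoter peak in all 6 lists and 42.4% in none. Genes of the Fos and the Jun branch were among those marked throughout, and the bare promoters were of 1 Fos gene and of Batf. In bulk retina, fewer cells with the mark and less of the mark per cell cannot be told apart.

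**Figure D1:**
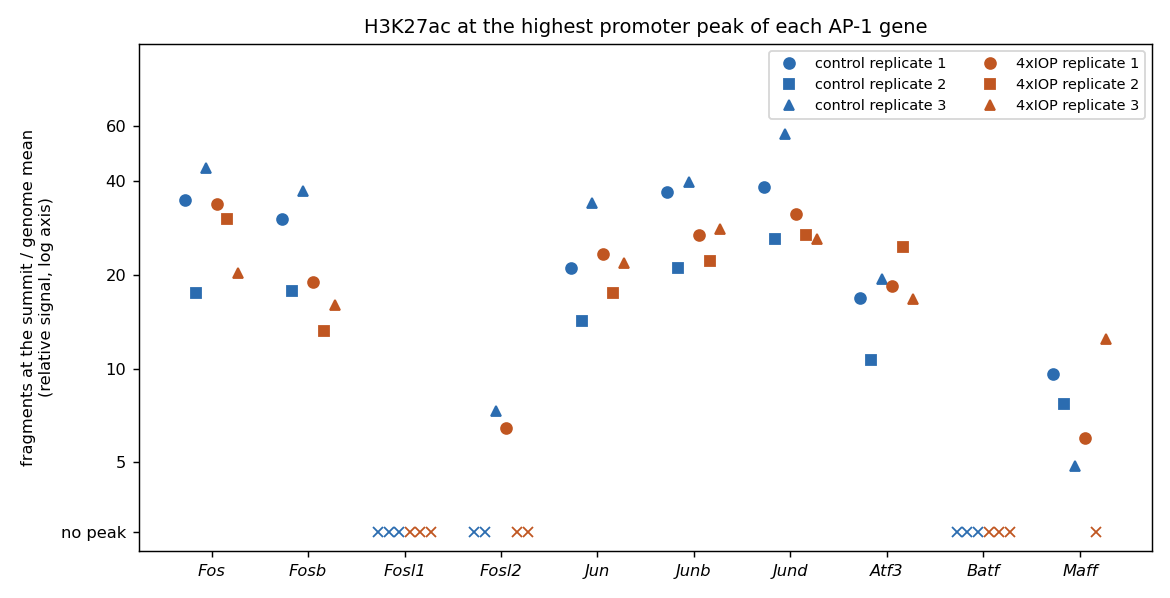
Relative signal at the highest promoter peak (fragments at the summit over the genome mean, log axis) of each AP-1 gene, with 1 point per list and crosses for lists with no promoter peak. The points of both groups overlap for each of Fos, Fosb, Jun, Junb, Jund and Atf3, while Fosl1 and Batf have no peak in any list.

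The Fos branch was described first. Fos (chr12:85473890-85477273, plus strand) encodes the partner of Jun in the classical AP-1 dimer. Its highest promoter peak had 76, 59 and 109 fragments at the summit in the control lists (replicates in order, as in all later sentences) and 68, 64 and 52 in the 4xIOP lists. Control replicate 3 was the highest and 4xIOP replicate 3 the lowest, and the 2 groups overlapped. The relative signal averaged 32.1 ± 13.5 for control and 28.1 ± 7.01 for 4xIOP (SD, n = 3), which placed Fos at the 94.8th percentile of the 8669 promoters marked in all lists. The summit lay upstream of the TSS in all 6 lists, between 650 and 1740 bp from it. A further peak inside the gene, 0.341 kb downstream of the TSS, was called in control replicates 1 and 3 and in 4xIOP replicate 3.

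Fosb (chr7:19302696-19310051, minus strand) encodes a close relative of Fos whose shortened form persists after repeated stimulation. Its promoter peak had 66, 60 and 92 fragments in control and 38, 28 and 41 in 4xIOP. These counts are not scaled for the list. After division by the genome mean of each list the groups overlapped, at 28.4 ± 9.87 in control and 16.0 ± 2.85 in 4xIOP (SD, n = 3). The summit lay inside the gene in all 6 lists, 1121 to 1739 bp downstream of the nearest TSS.

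The other 2 genes of the branch lacked a steady promoter mark. Fosl1 (chr19:5447547-5455946, plus strand), which encodes Fra-1, had 0 bp of its promoter under a peak in all 6 lists. Fosl2 (chr5:32135801-32157842, plus strand), which encodes Fra-2, had peaks of 17 and 18 fragments in control replicate 3 and 1 peak of 13 fragments in 4xIOP replicate 1. The latter had its summit 2.67 kb upstream, so that 62 bp of it reached the promoter. These peaks were at the 17.8th and 2.99th percentiles of their lists in relative signal.

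All 3 Jun genes were marked in every list. Jun (chr4:95049034-95052222, minus strand) encodes the classical partner of Fos and is a target of the JNK kinases. It had 46, 48 and 84 fragments in control and 47, 37 and 56 in 4xIOP, and the relative signal was 23.1 ± 10.1 and 20.9 ± 3.08 (SD, n = 3). Control replicate 3 was above all others and the remaining lists were mixed. Junb (chr8:84974484-84978718, minus strand), which encodes a partner that can restrain Jun, had 81, 71 and 98 fragments in control and 54, 47 and 72 in 4xIOP, and the relative signal of 32.6 ± 10.1 overlapped that of 25.7 ± 3.12 (SD, n = 3). The highest Junb peak was upstream in 5 lists and 2480 bp downstream in 4xIOP replicate 3. Jund (chr8:70698949-70700616, plus strand), the Jun gene with the most constant expression in most tissues, had 84, 88 and 140 fragments in control and 63, 57 and 67 in 4xIOP. These counts are not scaled for the list, and the relative signal of 40.4 ± 15.4 and 28.1 ± 2.82 (SD, n = 3) overlapped.

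Of the other bZIP members, Atf3 was marked in every list and Maff in most. Atf3 (chr1:191170296-191218039, minus strand) encodes a stress-induced factor that dimerizes with Jun. Its peaks were at the internal TSS at position 191183340, and the TSS at 191218039 had none within 2.5 kb. The counts were 37, 36 and 48 fragments in control and 37, 52 and 43 in 4xIOP, with a relative signal of 15.7 ± 4.52 and 19.9 ± 4.08 (SD, n = 3). Atf3 was the only one of the 6 genes marked throughout whose mean relative signal was higher in 4xIOP, and its groups overlapped on that scale. Maff (chr15:79346621-79359076, plus strand), which encodes a small Maf protein without an activation domain, had 21, 26 and 12 fragments in control and 12 and 32 in 4xIOP replicates 1 and 3. No promoter peak was called in 4xIOP replicate 2, and Maff therefore had no fitted value. Batf (chr12:85686669-85709087, plus strand), which encodes a factor known from lymphocytes, had 0 bp of its promoter under a peak in any list.

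In order of mean normalized signal over the 6 lists the genes marked throughout were Jund, Fos, Junb, Jun, Fosb and Atf3. The step from Junb down to Jun held in 6 of 6 lists, with a mean difference of 0.41 ± 0.21 on the log2 scale (SD over 6 lists). The other neighbours did not differ beyond their spread, and Fos and Junb, for example, were 0.02 ± 0.35 apart and in that order in 3 of 6 lists. The deposited fold ranked these promoters lower than the relative signal did. For Fos the fold was 3.56 to 3.97, at the 25.2nd to 49.6th percentile of its list, while the relative signal of the same peaks was at the 89.9th to 97.8th. The local background that enters the fold was 13.9 to 26.7 fragments at Fos and 14.1 to 35.4 at Jund.

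The sequence just upstream of a start is shown for 4 genes whose promoters were marked and hold an AP-1 or cAMP response motif, 250 bases each, 5′ to 3′ on the strand of the gene. They come from RefSeq on GRCm38.p6 and lie at chr12:85473640-85473889 (Fos, plus strand), chr4:95052223-95052472 (Jun, minus strand), chr1:191183334-191183583 (Atf3, minus strand) and chr15:79347270-79347519 (Maff, plus strand). Capitals mark matches to TGANTCA, TGACNTCA or TGACGT on either strand.

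Fos promoter: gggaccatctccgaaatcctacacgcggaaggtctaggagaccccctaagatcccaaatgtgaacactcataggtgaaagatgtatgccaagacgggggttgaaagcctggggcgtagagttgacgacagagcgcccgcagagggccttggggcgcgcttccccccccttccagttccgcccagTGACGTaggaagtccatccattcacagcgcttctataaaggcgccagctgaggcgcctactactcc

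Jun promoter: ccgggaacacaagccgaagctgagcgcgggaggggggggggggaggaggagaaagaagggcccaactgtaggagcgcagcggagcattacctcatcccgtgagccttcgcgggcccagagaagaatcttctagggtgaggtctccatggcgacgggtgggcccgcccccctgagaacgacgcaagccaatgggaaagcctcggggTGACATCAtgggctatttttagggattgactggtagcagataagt

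Atf3 promoter: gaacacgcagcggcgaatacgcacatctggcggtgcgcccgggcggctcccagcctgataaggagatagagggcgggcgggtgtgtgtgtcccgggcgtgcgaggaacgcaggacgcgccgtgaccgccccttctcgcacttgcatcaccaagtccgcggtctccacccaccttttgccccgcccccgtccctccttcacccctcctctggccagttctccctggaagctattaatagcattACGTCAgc

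Maff promoter: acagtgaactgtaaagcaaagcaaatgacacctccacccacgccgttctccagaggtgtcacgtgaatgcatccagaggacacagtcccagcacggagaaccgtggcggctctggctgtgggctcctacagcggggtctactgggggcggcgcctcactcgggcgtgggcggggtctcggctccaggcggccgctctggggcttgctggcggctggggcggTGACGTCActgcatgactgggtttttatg

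RefSeq promoters, from 250 bases before to 50 after a start, were at hand for 9 of the 10 genes, with 11 sequences in all. For Jund the RefSeq start lies upstream of the TSS used for the peaks, and for Fosl2 downstream of it, so the window searched in these genes is not the stretch before that TSS. TGANTCA was in 0 of these 9 genes and in 7.81% of all 32851 promoters. TGACNTCA, which takes in TGACGTCA, was in 2 of them, Jun and Maff, and in 8.83% of all promoters. In Jun the match began 45 bases before the start. TGACGT, which overlaps the former motif where the full palindrome is present, was in 4 genes (Fos, Atf3, Batf and Maff) and in 7.51% of all promoters. It began at 66 bases before the start in Fos, 8 in Atf3 and 98 in Batf. The CArG box, which serum response factor binds, was in 0 of the 9 genes and in 1.63% of all promoters, in this window and on either strand.

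The stretch before the start was under no peak in most of these genes, with Maff as an exception. In Fos, Fosb, Jun, Junb and Jund, 0 bp of the 250 bp before any TSS was under a peak in any of the 6 lists. In Atf3, 17 bp were under a peak in control replicate 3 and 0 bp in the other 5 lists. That is 5 of the 6 genes marked throughout with no coverage in any list, against 11.7% of the 8669 genes with a promoter peak in all lists. This feature was singled out after the values were seen. In Maff, the printed stretch had 36 bp under a peak in control replicate 1 alone, and the 250 bp before the TSS at 79348064 had 199, 185 and 183 bp in control and 30, 0 and 191 bp in 4xIOP. With 500 bp before the TSS it was 2 of 6 (Junb and Jund) against 8.24%, and without control replicate 3 it was 6 of 6 against 20.3%. In Jun, a region on either side of the TSS was called in all 6 lists. The summits lay 0.3 kb downstream, in the single exon of Jun, and 0.407 kb upstream, in the antisense noncoding gene Junos.

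**Figure D2:**
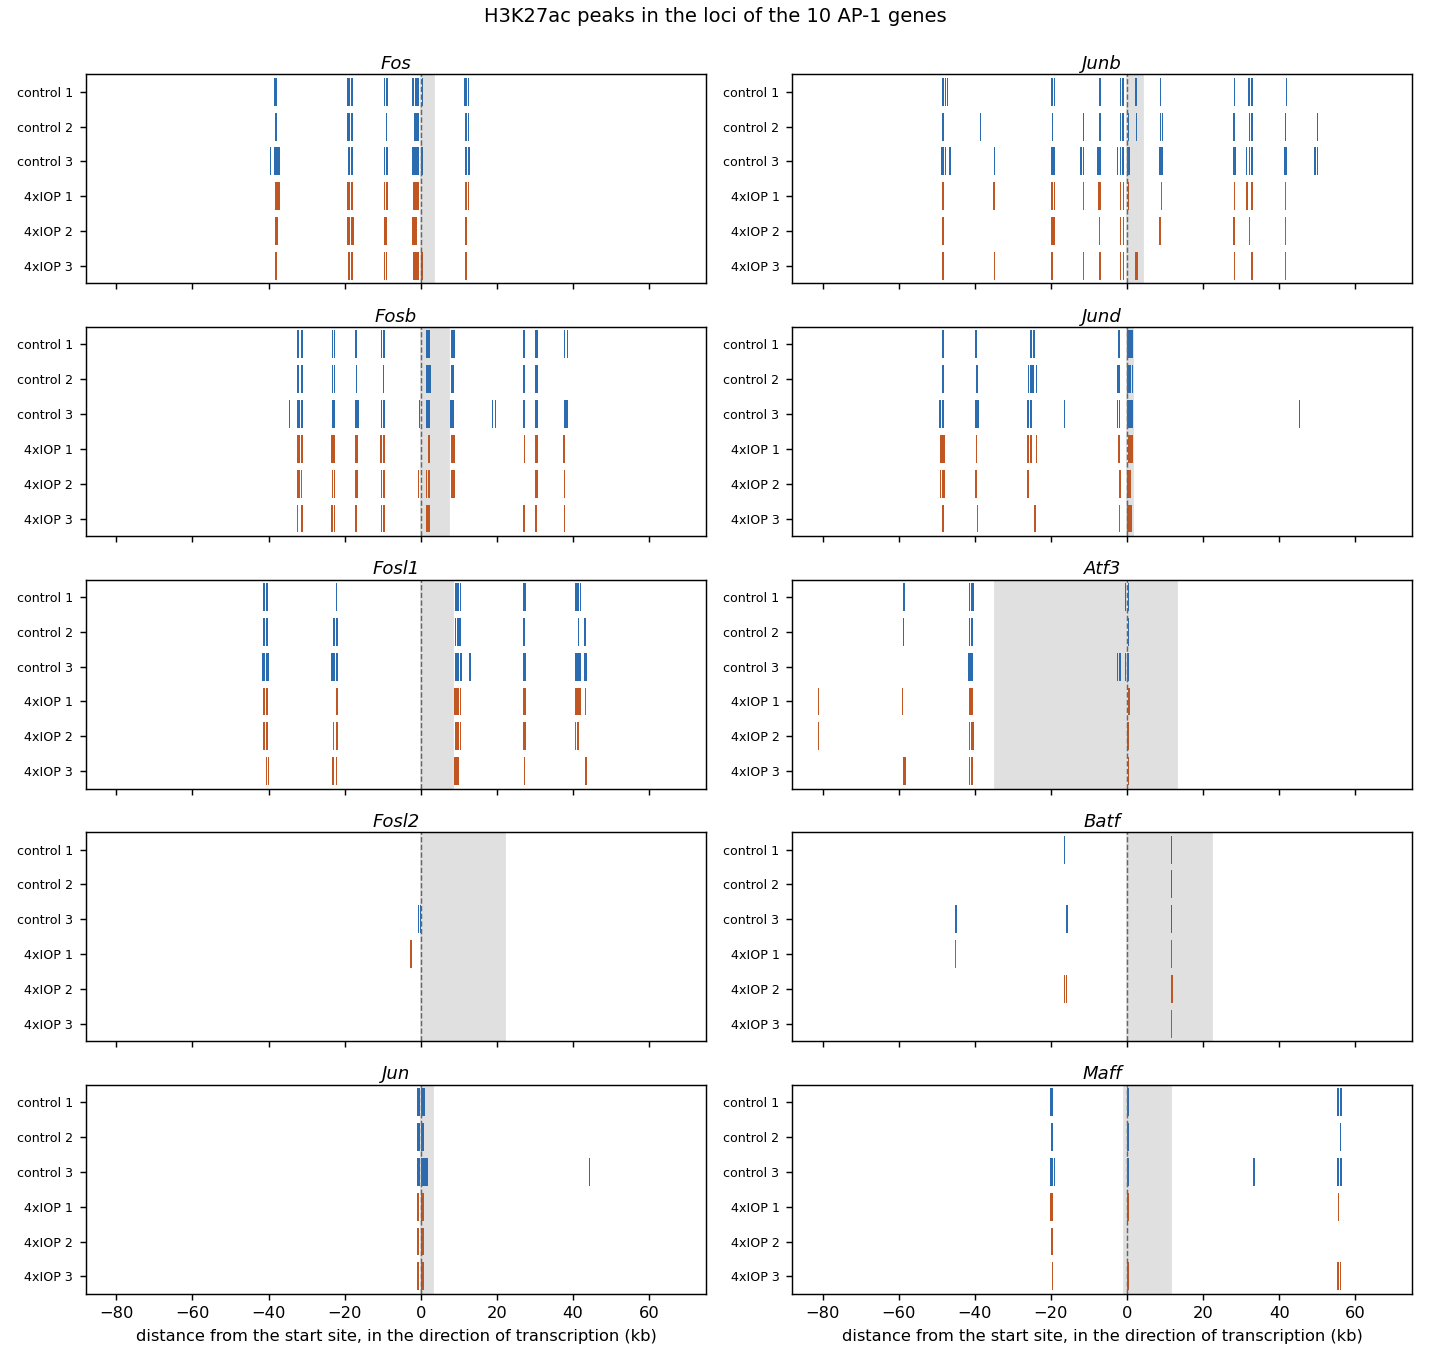
Peaks of the 6 lists (control blue, 4xIOP orange) in the loci of the 10 AP-1 genes, as distance in kb from a TSS (dashed) in the direction of transcription, with the gene body in grey and the narrowest peaks widened to be visible; the TSS is the internal one for Atf3, the middle one for Maff and the most upstream one otherwise. Fos and Fosb have several shared regions beyond their promoters, Jun has none beyond its promoter, and Batf has 1 in its gene body in all 6 lists.

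The promoter signal was then compared between the groups. After quantile normalization of the log2 relative signal, limma was fitted to the 8669 promoters marked in all 6 lists. With Benjamini-Hochberg adjustment at 0.05 it called 0% of the promoters higher and 0% lower in 4xIOP, and 276 promoters (3.18%) had an unadjusted p under 0.05. None of the 6 AP-1 promoters was called, and each had an adjusted p of 1.0. Fos differed by 0.17 ± 0.15 on the log2 scale (4xIOP minus control, SE, 95% interval -0.15 to 0.48), Jun by 0.25 ± 0.18 (-0.13 to 0.64), Junb by 0.04 ± 0.20 (-0.37 to 0.44) and Jund by -0.16 ± 0.14 (-0.45 to 0.14). The interval of each of these 4 genes held 0. With 3 lists a group these intervals were wide, and they do not give the smallest change that could have been detected. Single lists moved these values, since Jun was 0.04 without 4xIOP replicate 3 and 0.41 without 4xIOP replicate 2, and Jund was -0.30 and -0.05 in the same settings. Fos was 0.07 without control replicate 2 and 0.29 without control replicate 1. Junb changed sign, at -0.22 without 4xIOP replicate 3, -0.13 without control replicate 3 and 0.19 without 4xIOP replicate 2, and it was 0.26 on the deposited fold.

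Atf3 and Fosb were the 2 of the 6 genes with an unadjusted limma p under 0.05, in opposite directions. The normalized log2 signal at Atf3 was 4.03, 3.92 and 3.39 in control and 4.11, 4.64 and 4.55 in 4xIOP, so that the groups did not overlap. The difference was 0.65 ± 0.20 (SE, 95% interval 0.24 to 1.06, limma adjusted p = 1.0). Groups that did not overlap with 4xIOP higher were found at 1 of the 6 AP-1 promoters and at 4.2% of all promoters fitted, and groups with control higher at 0 of the 6 and 4.05%. The normalized log2 signal at Fosb was 4.83, 4.59 and 4.38 in control and 4.15, 3.79 and 4.48 in 4xIOP, with 4xIOP replicate 3 inside the control range. The difference was -0.46 ± 0.19 (SE, 95% interval -0.85 to -0.07, limma adjusted p = 1.0). Scaled by the genome mean alone, which moved the median of all promoters by -0.27, Atf3 differed by 0.37 and Fosb by -0.77. Neither had an unadjusted limma p under 0.05 on that scale, and 2 of the 8669 promoters did. Fosb also lost it on the deposited fold, without control replicate 1 or without 4xIOP replicate 2. With genome mean scaling Fos was at -0.12, Jun at -0.06 and Junb at -0.29. Between the 2 lists whose carried name is that of their label (control replicate 3 and 4xIOP replicate 3, with no test), Atf3 differed by 1.16, Junb by 0.84, Jun by 0.74, Fos by 0.15, Fosb by 0.10 and Jund by 0.09 in normalized log2 signal. For Junb and Jun the highest peaks of these lists lay at different places. From the TSS they were at -1664 bp (control) and 2480 bp (4xIOP) in Junb, and at 300 and -531 bp in Jun (negative upstream).

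**Figure D3:**
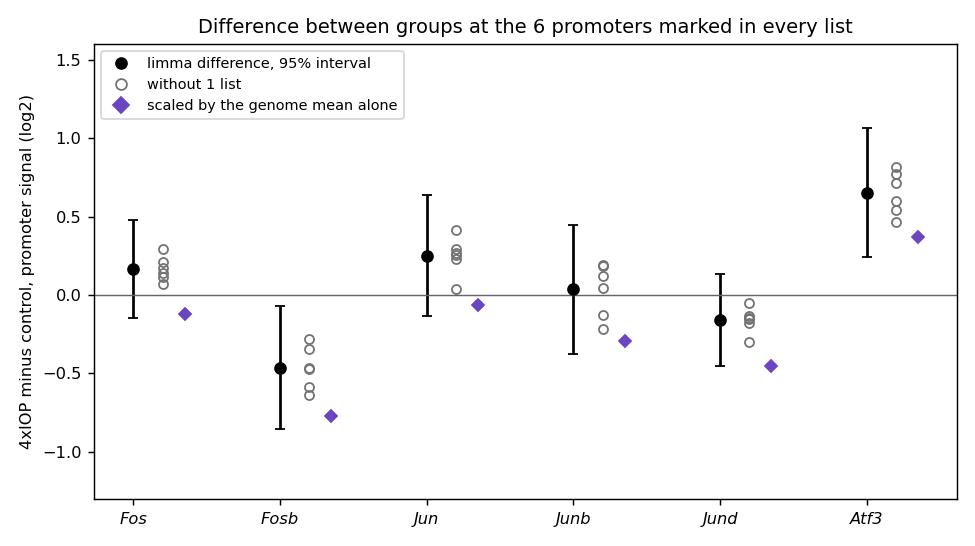
Difference in promoter signal between the groups (4xIOP minus control, log2) at the 6 AP-1 promoters marked in every list. Black points are the limma differences with 95% intervals, open circles leave out 1 list each, and diamonds are scaled by the genome mean alone, which put Fos, Jun and Junb below 0. Atf3 is above 0 and Fosb below 0 in all of these settings.

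The length under peaks is defined also where no peak was called, and it was compared with an exact permutation test over lists, two-sided, which cannot go below 0.1 with 3 lists against 3. At the promoters it was longer in every control list than in every 4xIOP list for Junb and Fosb, which is 2 of the 8 genes with any promoter coverage. Junb had 976, 1249 and 1404 bp in control and 797, 601 and 809 bp in 4xIOP (exact permutation p = 0.1). Fosb had 759, 1120 and 980 bp in control and 359, 748 and 678 bp in 4xIOP (exact permutation p = 0.1). Among the 12639 protein-coding genes with any promoter coverage, 10.8% did not overlap with control longer and 0.0554% with 4xIOP longer, and 0 AP-1 genes were of the latter kind. Control replicate 3 covered 20.1 Mb of the genome, against 6.66 to 10.8 Mb in the other 5 lists. Without it the same 2 genes did not overlap, and the difference (4xIOP minus control) was -345 bp for Fosb and -377 bp for Junb, beside -358 and -474 bp with all lists. With the lists cut to equal numbers of their strongest peaks only Fosb, and without control replicate 2 Fosb, Jun, Junb and Jund, did not overlap. The share of all genes without overlap was not computed for any of these changed list sets, so the counts have no background to be read against.

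Fos, Jund and Jun were among the most broadly covered promoters of the genome. Their mean over the 6 lists was 1695, 1668 and 1555 bp, at the 99.4th, 99.3rd and 98.8th percentile of all protein-coding genes. Fos had 1798 ± 440 bp in control and 1593 ± 401 bp in 4xIOP (SD, n = 3, exact permutation p = 0.7), Jund 1762 ± 109 and 1575 ± 133 bp (exact permutation p = 0.2), and Jun 1751 ± 640 and 1360 ± 127 bp (exact permutation p = 0.5). Junb followed at the 88.9th percentile, Fosb at the 78.1st, Atf3 at the 72.1st and Maff at the 55.1st. Among the 8669 genes marked in all lists, Fos was at the 98.4th percentile, Jund at the 98.2nd, Jun at the 97.1st, Junb at the 72.1st, Fosb at the 44.8th and Atf3 at the 30.4th. Atf3 had 823 ± 648 bp in control, where replicate 3 alone had 1554 bp, and 527 ± 119 bp in 4xIOP (SD, n = 3, exact permutation p = 0.8).

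**Figure D4:**
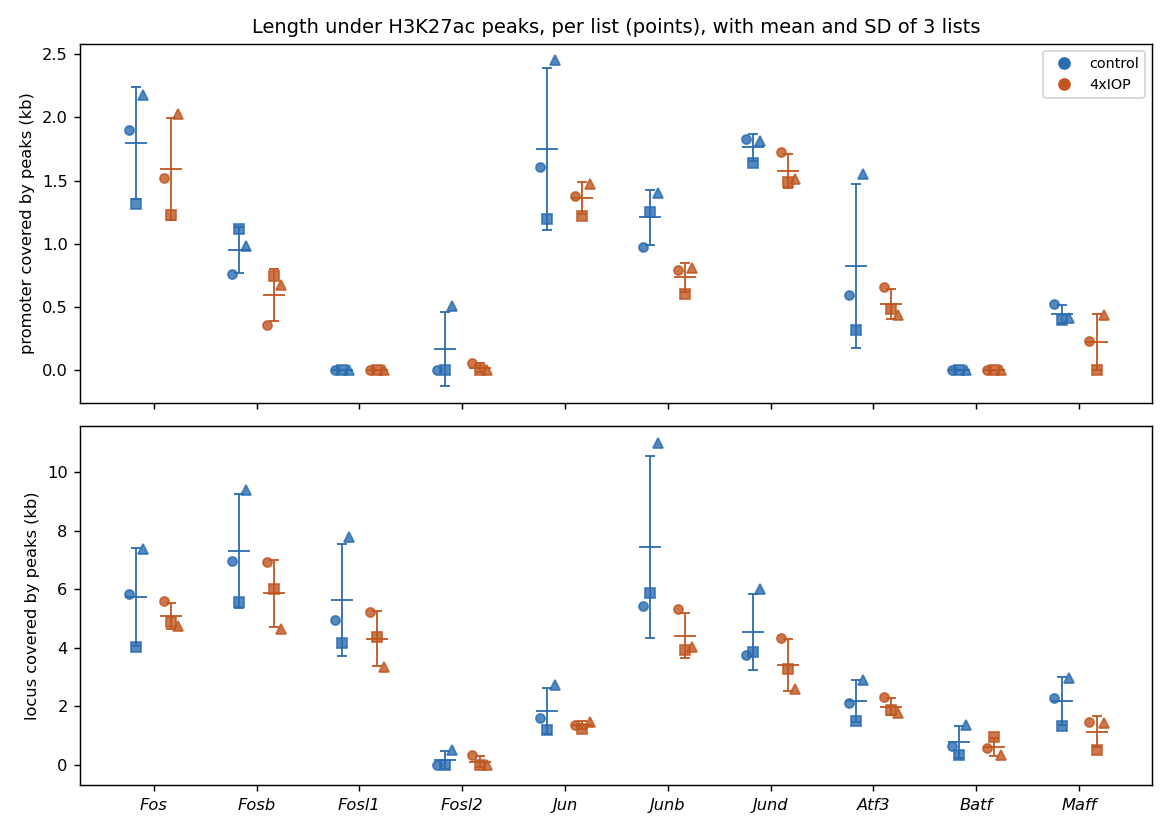
Length under peaks in kb in the promoters (top) and loci (bottom) of the 10 AP-1 genes, with 1 point per list and the mean and SD of 3 lists per group. Control lists sit above all 4xIOP lists at the promoters of Fosb and Junb and at the locus of Junb, and control replicate 3 is the highest at all 10 loci.

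The 10 loci held 94 regions when the 6 lists were merged, of which 34 (36.2%) were called in all 6 lists, against 26.4% of the 39942 merged regions of the genome. No region here was called throughout 1 group while missing from the other. Genome-wide, 1.05% of merged regions were called in all 3 control lists alone and 0.015% in all 3 4xIOP lists alone. Of the 22 regions called in a single list, 18 were in control replicate 3. The 34 shared regions comprised 9 at promoters of the AP-1 genes, 15 at promoters of other genes and 10 away from any TSS.

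Fos had the most shared regions outside promoters, 4 of the 10. They lay in intergenic sequence at 18.8, 18.1 and 9.03 kb upstream and 11.9 kb downstream of the TSS. The downstream region (chr12:85485326-85486046) had 97, 37 and 105 fragments in control and 70, 71 and 50 in 4xIOP. Control replicates 1 and 3 were the highest and control replicate 2 the lowest, so the groups overlapped, and the relative signal of 32.6 ± 18.8 and 29.3 ± 8.48 (SD, n = 3) was about that of the Fos promoter. The region 18.8 kb upstream (chr12:85454432-85455255) had 87, 60 and 102 fragments in control and 71, 87 and 49 in 4xIOP. A region 37.9 kb upstream, at the promoter of the noncoding gene Gm40477, was shared as well. Between the TSS of Fos and 11.9 kb downstream no region was called in all 6 lists.

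Fosb had 2 shared regions outside promoters, at 9.805 and 16.9 kb upstream, the first intergenic and the second in the noncoding gene D830036C21Rik. The first (chr7:19319422-19320072) had 78, 39 and 72 fragments in control and 69, 63 and 34 in 4xIOP. Junb had 2 (7.38 and 19.5 kb upstream, the latter in Hook2) and Jund had 1 (48.4 kb upstream, in Pgpep1). Jun had none, and besides its promoter regions its locus held 1 peak of 11 fragments in control replicate 3. The covered length of the locus, promoters of neighbouring genes included, placed Fosb, Junb and Fos at the 99.5th, 98.8th and 97.9th percentile of protein-coding genes, Jund at the 92.2nd, and Jun at the 57.9th. Junb was the only one of the 10 loci that did not overlap between the groups, with 5435, 5887 and 11011 bp in control and 5321, 3926 and 4014 bp in 4xIOP (exact permutation p = 0.1). Among all genes with any locus coverage 10.7% did so with control longer and 0.0646% with 4xIOP longer. The smallest gap at Junb was between 5435 and 5321 bp, and within 10 kb of the gene bodies Junb and Jund did not overlap. The share of all genes without overlap was not computed at 10 kb.

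A bare promoter did not mean a bare locus. In Batf, a region in an intron 11.8 kb downstream of the TSS (chr12:85698187-85698647) was called in all 6 lists, with 29, 29 and 48 fragments in control and 22, 31 and 18 in 4xIOP. The relative signal averaged 13.8 ± 5.45 for control and 10.9 ± 3.80 for 4xIOP (SD, n = 3). The groups overlapped, and 4xIOP replicate 3 was the lowest. It was the only region of the Batf locus called in more than 2 lists. The 300 bases around its summit, in the list with the highest signal (chr12:85698285-85698584, plus strand, GRCm38.p6), held none of the motifs searched and are given because this is the only steady mark of the gene. The window at the Fos promoter summit of control replicate 3, the list with the highest signal (chr12:85472000-85472299, plus strand), is shown for comparison. It held 1 match to TGACNTCA, in capitals. The summits of the highest Fos promoter peak in the other lists lay outside this window.

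Batf intron: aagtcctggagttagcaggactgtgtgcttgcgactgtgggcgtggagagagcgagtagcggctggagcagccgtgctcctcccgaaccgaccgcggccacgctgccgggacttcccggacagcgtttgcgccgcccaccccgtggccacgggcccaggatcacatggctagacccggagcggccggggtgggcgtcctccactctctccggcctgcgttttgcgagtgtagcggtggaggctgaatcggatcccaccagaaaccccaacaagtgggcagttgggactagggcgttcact

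Fos promoter summit: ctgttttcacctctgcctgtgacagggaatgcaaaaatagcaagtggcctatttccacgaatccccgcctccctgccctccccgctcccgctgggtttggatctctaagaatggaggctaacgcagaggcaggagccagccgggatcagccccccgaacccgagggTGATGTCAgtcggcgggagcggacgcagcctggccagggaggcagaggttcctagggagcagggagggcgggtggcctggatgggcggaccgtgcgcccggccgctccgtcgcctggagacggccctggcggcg

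TGANTCA was in 1 of the 10 windows of shared regions away from any TSS, the one at Pgpep1, and in 7.92% of all 1805 such windows. TGACNTCA was in 1 of the 10, the one 9.805 kb upstream of Fosb, and in 4.16% of all.

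In the Fosl1 locus all 4 shared regions lay at promoters of other genes, namely 4930481A15Rik, Drap1 with AI837181, Ccdc85b and Efemp2, and its covered length was at the 96.8th percentile although the Fosl1 promoter was bare. The Fosl2 locus held only the 3 weak promoter regions named above. In Maff the only region in all 6 lists was at the promoter of Pla2g6, 18.7 kb upstream. The Atf3 locus shared a region at the promoter of the noncoding gene D730003I15Rik, 6.60 kb upstream of the outer TSS, with 63, 65 and 107 fragments in control and 53, 45 and 53 in 4xIOP. Other shared promoter regions belonged to Ppm1n, Gm44698, D830036C21Rik and Ercc1 in the Fosb locus, Mast1, Rtbdn and Trir with Asna1 in the Junb locus and Pgpep1 in the Jund locus.

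Of the 94 regions, 3 were called in exactly the lists that share a carried name. The Junb region 2.40 kb downstream of the TSS (chr8:84975896-84976556) was called with 64 fragments in control replicate 1, 51 in control replicate 2 and 72 in 4xIOP replicate 3, and in no other list. These are the 3 lists whose peak names carry the name of the pressure group. A region 24.0 kb upstream of Atf3 was called in the same 3 lists, with 41, 40 and 32 fragments. A region in Pgpep1, 49.05 kb upstream of Jund (chr8:70649502-70650222), was called in the 3 lists whose names carry that of the control group, with 47 fragments in control replicate 3, 41 in 4xIOP replicate 1 and 38 in 4xIOP replicate 2. The pattern was singled out after the values were seen. Genome-wide, 0.223% of merged regions were called in exactly the lists with the pressure name and 1.61% in exactly those with the control name.

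For the 10529 regions found in every list, 0% were called by limma as higher and 0% lower in 4xIOP, with an unadjusted p under 0.05 in 2.74%. Of the 34 shared regions in the AP-1 loci, 0 were called, and 1 had an unadjusted p under 0.05, the Atf3 promoter region (0.62 ± 0.20 on the log2 scale, SE, Benjamini-Hochberg adjusted p = 1.00). Groups did not overlap at that region, with 4xIOP higher, and at the Ccdc85b promoter in the Fosl1 locus, with control higher. The shares of all shared regions of these kinds were 3.72% and 4.29%. With all 6 lists the lowest unadjusted p of the 10 regions away from TSSs was 0.223, and it was 0.0128 without control replicate 1 and 0.0308 without 4xIOP replicate 3, with 0 called by limma in either. The Fos region 11.9 kb downstream differed by 0.29 ± 0.26, the Fosb region 9.805 kb upstream by 0.33 ± 0.26 and the Batf intron region by -0.10 ± 0.21 (log2, SE). With fragment-length class as a term the Fos region was 0.082 and the Fosb region 0.048. Leaving out control replicate 2 turned the Fos difference to -0.07, and without control replicate 1 it was 0.63. With 1 list left out the Fosb difference was 0.16 (without control replicate 2) to 0.66 (without control replicate 1), and the Batf difference was -0.31 (without 4xIOP replicate 2) to -0.005 (without 4xIOP replicate 3).

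The kinases and regulators upstream of AP-1 were mostly marked, the other bZIP genes were split, and the genes that AP-1 is known to switch on were mostly bare. Of 22 kinases and regulators upstream of AP-1, 17 promoters were marked in all 6 lists and 0 in none, beside 39.5% and 42.4% of all protein-coding genes. Of 17 other bZIP genes, 10 were marked in all lists and 5 in none, with Jdp2, a repressor of AP-1 that lies between Fos and Batf, in all 6. Its promoter signal differed by -0.08 ± 0.17 (log2, SE). Of 15 genes known as AP-1 targets, 0 were marked in all lists and 13 in none. Limma called 0 of the 17, 10 and 0 fitted promoters of these 3 lists higher or lower. The median difference was -0.07 for the kinases and regulators and -0.08 for the other bZIP genes, against 0.10 for the 6 AP-1 genes and -0.0003 for all promoters. These medians are of the main setting, and the AP-1 values moved with the scaling and with single lists. Mapk10, which encodes the neuronal kinase JNK3, had a promoter peak in all 3 control lists and in 1 4xIOP list. Hmox1, which encodes heme oxygenase 1, had one in the same numbers of lists, with a relative signal of 10.95, 8.87 and 13.0 in control and 10.8 in 4xIOP replicate 2. Of all protein-coding genes, 1.42% had a promoter peak in all 3 control lists and at most 1 4xIOP list, and 0.173% the reverse.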

How the data were processed

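H3K27ac ChIP-seq peak lists of 6 mouse retinas were used, 3 control and 3 4xIOP, grouped by the labels. The submitters' processing notes name STAR 2.7.8a, MACS2, HOMER, bedtools 2.29.2 and mm10, with no role stated. The authors deposited 1 narrowPeak list per retina, with the fold over local background at the summit, the −log10 p-value and the −log10 q-value of each peak. The deposited display score of each peak repeats the −log10 q in whole numbers and was not used. The lists were called per retina, and the lowest −log10 q was 1.31 to 1.41. Sites below the caller's threshold were not used here, and the lists do not give the exact depth of each library.

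The fold is the fragments at the summit plus 1 over the local background plus 1, and the p-value is the Poisson tail, so both terms were solved for. All peaks (100%) gave whole fragments within 0.001 of the deposited −log10 p. Fragments were divided by the lowest local background of the list, taken as its genome mean. The highest peak of each promoter, and each merged region, was compared on quantile-normalized log2 relative signal with limma 3.58.1 (R 4.3.3) with Benjamini-Hochberg adjustment, over the features present in all 6 lists. Covered length was compared with exact permutation tests over all splits of the lists. The scripts were tested on simulated data. Nothing says that the retinas of a group were processed apart, so p-values measure the spread between these samples alone.

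The AP-1 genes and the gene lists were chosen with earlier results of these data known. Named were all AP-1 genes, Jdp2, genes of the other lists marked in all lists of a group and at most 1 of the other, and regions at AP-1 promoters, in all 6 lists or in all of 1 group alone. The other regions named, those that follow the carried names and those of single lists among them, were chosen after their values were seen. Replicate numbers are not stated to mark the same animal, and the samples were not paired in the main fits. Python 3.11.15 with pandas 2.3.3, numpy 2.4.6, scipy 1.17.1, pysam 0.24.0 and matplotlib 3.10.9 was used.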

Additional observations from a re-analysis of the deposited data

How the results depend on the processing

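Limma called 0 promoters and 0 shared regions under all 16 and 13 alternatives, and the lowest adjusted p was 0.549 and 0.42, both without 4xIOP replicate 3, where 657 promoters and 1122 regions had an unadjusted p under 0.05. With a replicate block 0 were called in either and 261 and 268 had such a p. Samples of the same number did not deviate together (correlations -0.07, -0.05 and -0.10). Such values cannot show whether equal numbers mark both eyes of an animal, and the labels do not state it. Atf3 was above 0 in every setting run, with a limma p of 0.00149 (without 4xIOP replicate 1) to 0.474 (genome mean scaling). Its value was 0.47 to 0.82 with 1 list left out, against -0.64 to -0.28 for Fosb.

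Scaling by the genome mean alone moved the median of all promoters to -0.27 and turned Fos to -0.12, Jun to -0.063 and Junb to -0.29. Junb was -0.21 with a promoter of 1 kb and -0.22 to 0.19 with 1 list left out (-0.13 without control replicate 3, -0.22 without 4xIOP replicate 3). Jund was 0.0032 on the deposited fold. Between the lists whose carried name is their label, an alternative chosen after seeing the data, Fosb was 0.10, Jund 0.094 and Maff covered 24.0 bp more promoter in 4xIOP. The Fos region 11.9 kb downstream was -0.071 without control replicate 2, the lowest value with 1 list left out, and 0.63 without control replicate 1, the highest. In covered length, the difference turned to 4xIOP longer for the Atf3 promoter (121 bp) and the Batf locus (77.7 bp) with the same number of top peaks, and for the Fosb promoter (17.0 bp) at 1 kb. Without control replicate 3 it turned for the Atf3 promoter (69.5 bp) and the loci of Fos (148 bp), Atf3 (186 bp) and Batf (124 bp), while without control replicate 2 these 4 differences were -547 bp, -1528 bp, -527 bp and -404 bp, the other end of their ranges with 1 list left out. Promoters whose groups did not overlap numbered 1 with the same number of top peaks (Fosb), 1 at 1 kb (Jund), and 2 to 4 with 1 list left out, the 4 without control replicate 2. Loci of that kind numbered 2 with a flank of 10 kb, and 1 to 5 with 1 list left out, the 5 without control replicate 2 (Fos, Fosb, Jun, Junb, Maff) and 2 without 4xIOP replicate 1. The share of all genes without overlap was not computed in these settings, so the counts of promoters and loci have no background. The number of promoters marked in all lists was 5 at 1 kb, where Fosb was lost, and 7 without 4xIOP replicate 2, with Maff. The causes of these shifts were not tested. With 3 lists a group, no exact depth per list and no values below the calling threshold, weak marks and small differences were not detectable.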
